A study of Mus musculus with 30 samples.

Results

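Astrocytes sorted from the spinal cords of vehicle-treated mice with experimental autoimmune encephalomyelitis (EAE) were compared with astrocytes of naive mice. The comparison takes in 10 of the 30 RNA-seq libraries of the series, 6 EAE-vehicle and 4 naive, which were chosen by their labels, and 11263 of the 30952 genes in the deposited table, which were chosen by a mean log2 value of at least 1 over these 10 libraries. The genes nearest this limit had means of 1.00029 (Gm9109) inside and 0.99992 (CR974586.5) outside. Mice were female C57BL/6 animals, and EAE was induced at 8 to 10 weeks of age with the myelin peptide MOG35-55 in complete adjuvant and pertussis toxin, and from a clinical score of about 1 the EAE mice were given the vehicle, 20% Captisol, by mouth 2 times a day for 3 days. The naive mice had no EAE, and no dosing is given for them, so immunization, disease and vehicle cannot be told apart in this comparison. The cells came from perfused spinal cords that were dissociated with Accutase, cleared of myelin by spinning in albumin and sorted as GLAST+CD11b-CD45-CD140a-, where GLAST is the surface transporter encoded by Slc1a3. Values are log2 FPKM (fragments scaled to exon length and library size) after quantile normalization by the authors, so every level and difference below is on that log2 scale, and a difference is EAE-vehicle minus naive. The labels give each library as a replicate of its group, and the study counts these replicates as mice, so p-values measure the spread between single animals as sorted and sequenced.

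Astrocytes take up glutamate and GABA, buffer potassium, couple through gap junctions, and supply neurons with lactate and with cholesterol carried on apolipoprotein E. In EAE, T cells that recognise myelin enter the spinal cord and release interferon gamma and other cytokines. Interferon gamma switches on, in part through the factor IRF1, GTPases that attack intracellular vacuoles, the immunoproteasome and antigen presentation, while reactive astrocytes build up the filament protein GFAP.

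The libraries differed in how many genes they detected. Between 8815 and 22981 genes had signal in the naive libraries and between 6728 and 22109 in the EAE-vehicle libraries. EAE-vehicle replicate 1 had the fewest, and its Pearson's r with the other EAE-vehicle libraries, across genes, was at most 0.50, against at least 0.61 among replicates 2 to 6. Naive replicate 2 also stood apart, with an r of at most 0.60 with the other naive libraries, which reached at least 0.77 among themselves. Genes are not independent replicates in these correlations. Counts without EAE-vehicle replicate 1 are given beside the results that they touch most. The depth of the libraries is unknown, since quantile-normalized values keep no counts. Genes without signal fill the lowest stretch of each library, which reached 0.00 in naive replicate 1, 1.69 in naive replicate 2, 0.48 in naive replicate 3 and 0.81 in naive replicate 4, and up to 2.74 in EAE-vehicle libraries. Values in this stretch are given as the table holds them and do not measure a level.

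Of the 11263 genes, 776 (6.89%) were called higher in EAE-vehicle astrocytes and 1036 (9.2%) lower. Calls were made at a fold change over 1.5 and an unadjusted p under 0.05 from limma. Counts of called list members below are to be read against these shares. At an adjusted p under 0.05, 223 genes (1.98%) were higher and 229 (2.03%) lower. The count of 229 was 100 without naive replicate 1, 91 without naive replicate 3 and 103 without naive replicate 4. Without EAE-vehicle replicate 1, 906 (8.04%) were called higher and 966 (8.58%) lower, of which 684 and 830 had the same call with all 6 EAE-vehicle libraries. The EAE-vehicle and naive values did not overlap for 303 higher genes (2.69%) and 380 lower genes (3.37%). The median difference of all genes tested was -0.09, and centring each library on its own median moved it to 0.03 and the share of higher genes among the calls from 42.8% to 51.7%. Among the genes called higher, 78 had no signal in any naive library, and the size of their difference depends on the offset added before the logarithm.

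**Figure D1:**
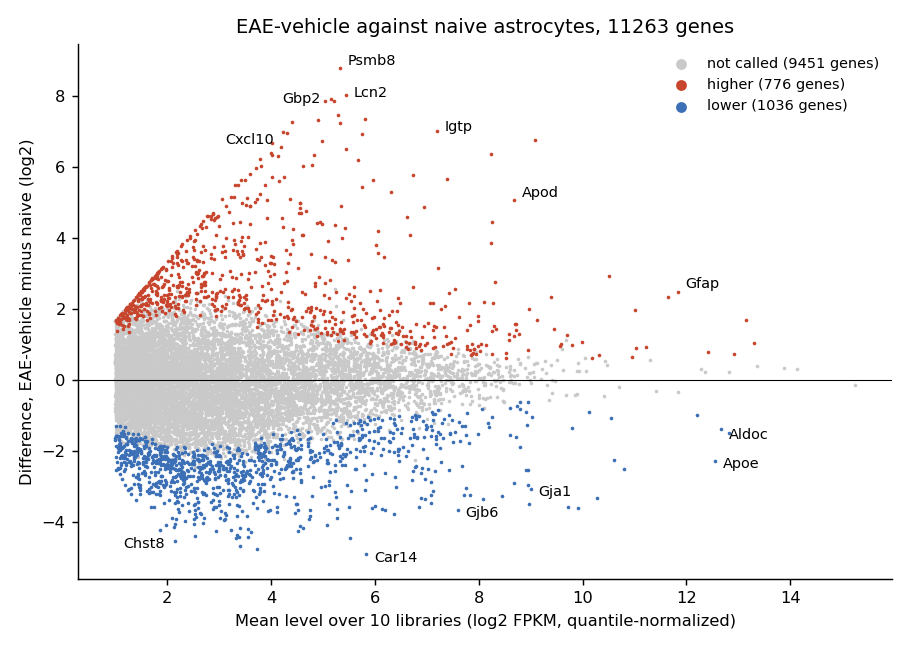
Difference between EAE-vehicle and naive astrocytes (log2) against the mean level over the 10 libraries, 1 point per gene of the 11263 tested. Genes called higher are red (776), genes called lower blue (1036) and the others grey, and the straight upper edge at low levels holds genes without signal in most naive libraries.

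The 10 astrocyte markers averaged 8.97 to 9.45 in the naive libraries and 7.90 to 8.87 in the EAE-vehicle libraries, and each of them had signal in all 10 libraries, so the genes that define the labelled cell type were present throughout. The marker lists of other cells were read in the same libraries. List means here and below keep genes without signal at their deposited values, so low means do not measure a level. The 9 T cell markers averaged 0.61 to 1.29 in naive libraries, 1.45 in EAE-vehicle replicate 4 and 3.51 to 6.08 in the other EAE-vehicle libraries, and 7 of the 9 were called higher, where 6 of the 9 passed the level filter only through their EAE-vehicle values. The monocyte and neutrophil markers went from 0.09 to 1.83 up to 2.44 to 5.49, with 7 of 8 tested members called higher, 6 of the 8 having passed the filter only through EAE-vehicle values. The oligodendrocyte markers went from 3.92 to 5.34 up to 5.31 to 8.23, with 6 of 8 called higher, among them the myelin genes Mobp (2.34 ± 0.31, SE) and Mag (3.54 ± 0.77, SE). Of the 11 microglial markers tested, 6 of them through EAE-vehicle values only, 4 were called higher. The neuronal markers averaged 3.55 to 4.23 in naive and 4.42 to 4.78 in EAE-vehicle libraries, which did not overlap, and 1 of the 8 tested was called higher. Endothelial markers averaged at most 1.10 in 9 of the libraries and 3.52 in naive replicate 4, and no B cell, oligodendrocyte precursor or mural cell marker reached the level filter. Haemoglobin and Alas2 levels averaged 3.88 to 8.67 in naive and 0.08 to 7.40 in EAE-vehicle libraries. The gate excludes CD45+ and CD11b+ cells. The part of these other cells in the results below was not tested. In bulk samples a smaller share of astrocytes and less RNA per astrocyte cannot be told apart.

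**Figure D2:**
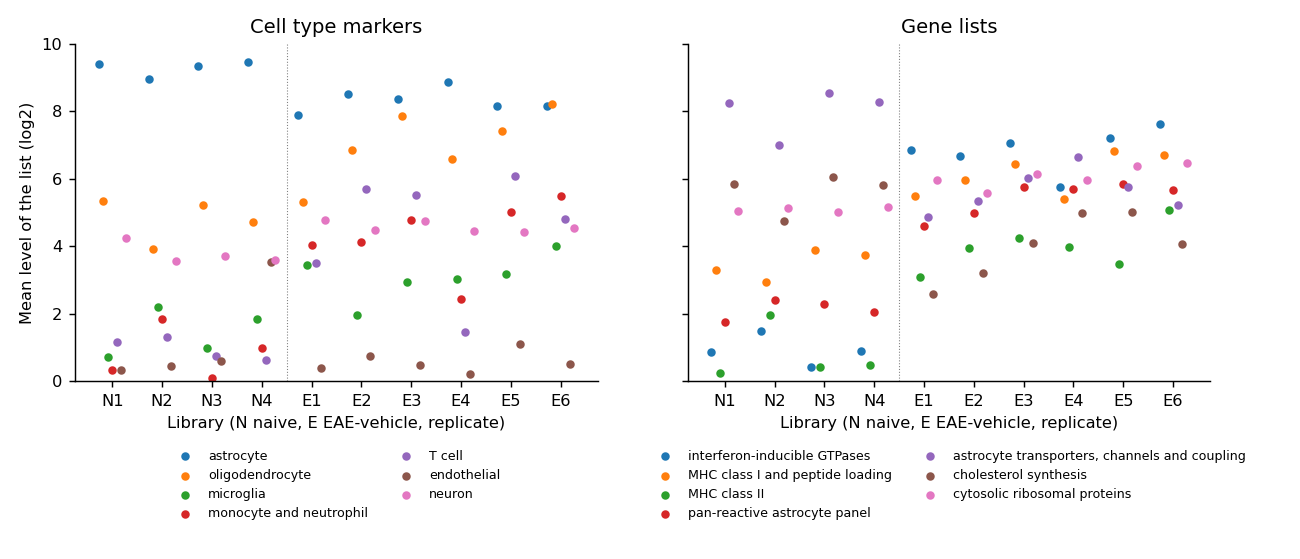
Mean level (log2) of cell type marker lists (left) and gene lists (right) in each of the 4 naive (N) and 6 EAE-vehicle (E) libraries, 1 point per list and library. T cell markers are low in EAE-vehicle replicate 4, at 1.45. The interferon-inducible GTPases average 5.75 there, 6.68 to 7.64 in the other EAE-vehicle libraries and at most 1.49 in any naive library.

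The interferon-inducible GTPases rose as a group. They comprise the immunity-related GTPases, such as Igtp and Irgm2, and the guanylate-binding proteins, such as Gbp2, which coat and disrupt vacuoles that hold microbes. Many of their promoters are known to carry 2 short elements, the interferon-stimulated response element (ISRE), bound by IRF factors, and the gamma-activated site (GAS), bound by STAT factors. The 250 bases before the RefSeq start site (GRCm38.p6, read in the direction of transcription) are shown for the 5 GTPase genes among the 12 largest rises that held a match, with the immunoproteasome gene Psmb8 for comparison, with letters in capitals that match on either strand GAAA, any 2 bases and GAAA again (ISRE-like) or TTCNNNGAA (GAS-like).
Gbp2, chr3:142620413-142620662, plus strand: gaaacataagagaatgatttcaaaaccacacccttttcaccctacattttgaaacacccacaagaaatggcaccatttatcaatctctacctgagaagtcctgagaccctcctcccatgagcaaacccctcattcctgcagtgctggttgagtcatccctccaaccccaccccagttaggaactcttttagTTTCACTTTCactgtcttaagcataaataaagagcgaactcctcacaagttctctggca
Igtp, chr11:58199306-58199555, plus strand: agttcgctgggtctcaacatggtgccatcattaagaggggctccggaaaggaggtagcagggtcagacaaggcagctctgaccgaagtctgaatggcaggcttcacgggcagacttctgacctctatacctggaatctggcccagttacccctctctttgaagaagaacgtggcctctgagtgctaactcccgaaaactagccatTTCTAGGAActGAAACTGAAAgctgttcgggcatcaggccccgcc
Irgm2, chr11:58214727-58214976, plus strand: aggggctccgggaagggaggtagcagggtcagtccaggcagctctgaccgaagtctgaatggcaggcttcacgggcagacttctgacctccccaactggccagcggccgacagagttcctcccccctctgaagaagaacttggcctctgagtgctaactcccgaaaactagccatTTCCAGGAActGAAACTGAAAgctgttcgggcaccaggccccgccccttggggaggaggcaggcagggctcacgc
Tgtp1, chr11:48992247-48992496, minus strand: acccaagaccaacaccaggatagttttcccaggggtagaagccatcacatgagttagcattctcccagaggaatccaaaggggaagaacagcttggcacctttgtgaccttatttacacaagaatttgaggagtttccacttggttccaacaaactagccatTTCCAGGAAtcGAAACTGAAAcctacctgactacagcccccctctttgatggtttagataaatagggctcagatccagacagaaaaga
Tgtp2, chr11:49064213-49064462, minus strand: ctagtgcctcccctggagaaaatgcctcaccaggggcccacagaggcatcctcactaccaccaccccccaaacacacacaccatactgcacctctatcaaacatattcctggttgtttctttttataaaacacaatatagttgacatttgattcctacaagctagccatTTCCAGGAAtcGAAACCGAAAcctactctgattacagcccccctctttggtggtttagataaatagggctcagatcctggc
Psmb8, chr17:34197945-34198194, plus strand: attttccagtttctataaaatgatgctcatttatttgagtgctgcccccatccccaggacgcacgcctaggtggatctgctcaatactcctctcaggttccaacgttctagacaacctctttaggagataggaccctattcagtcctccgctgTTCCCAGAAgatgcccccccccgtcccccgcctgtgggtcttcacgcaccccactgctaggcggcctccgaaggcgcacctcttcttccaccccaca
In Igtp, Irgm2, Tgtp1 and Tgtp2 a GAS-like match was followed closely by an ISRE-like match, with the first bases of the pair at -45 and -34 from the start site in Igtp and at -75 and -64 in Irgm2. Gbp2 held an ISRE-like match alone, first base at -59, and Psmb8 a GAS-like match alone, at -97. Ifi47 held neither in its 250 bases. The RefSeq starts of Irgm2 and Psmb8 lie inside the longer spans that the deposited annotation gives these genes. The reference table had promoters for 10 of the 17 GTPase genes, with none for Gbp6 or Iigp1. Of these 10, 9 (90%) held an ISRE-like and 6 (60%) a GAS-like match, while of the 8457 genes tested that had a promoter 280 (3.31%) and 613 (7.25%) did. The promoters of Igtp and Irgm2 are nearly the same around their matches, as are those of Tgtp1 and Tgtp2. The 10 promoters are therefore not independent. The ISRE-like letters were present in 57 of 573 promoters of genes called higher (9.95%) and in 29 of 797 of genes called lower (3.64%). The GAS-like letters were present in 52 of the 573 (9.08%) called higher and in 57 of the 797 (7.15%) called lower, against 7.25% of all tested. These are matches of letters and not mapped binding sites.

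All 17 listed GTPase genes passed the level filter, 12 of them only through their EAE-vehicle values, and all 17 were called higher (16 without the level filter), 15 of them at an adjusted p under 0.05. Their median difference was 6.96, and 6.82 without EAE-vehicle replicate 1. Gbp2 stood at 0.92, 0.12, 0.54 and 0.09 in the 4 naive libraries and at 7.20 (lowest), 8.45 (median) and 9.09 (highest) in the 6 EAE-vehicle libraries. Its difference was 7.91 ± 0.51 (SE, adjusted p = 8.93e-12), and the groups did not overlap. Gbp6 was similar, with 0.88, 0.19, 0.11 and 0.14 in naive and 7.62, 8.13 and 8.72 in EAE-vehicle libraries. Igtp had naive values of 3.64, 2.41, 0.00 and 5.85 and EAE-vehicle values from 9.52 to 10.19 with a median of 10.06. It therefore started from detectable levels in 3 of 4 naive libraries and reached the highest level of the named GTPases, 7.02 ± 0.65 (SE) above naive. Irgm2 had signal in 1 naive library, at 0.10, and ran from 6.18 to 7.92 in EAE. The deposited annotation lets Irgm2 (chr11:58199618-58222782) run across Igtp (chr11:58199556-58207591) and marks both as confounded, so reads of one could count for the other. The same mark stands on 12 of the 17 GTPase genes and on 6304 of the 11263 genes tested. Many members of the other lists below carry it as well. For each of the 12 largest rises the groups did not overlap, as their choice by size and adjusted p favours.

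Iigp1 (7.85 ± 0.51, SE), Ifi47 (7.35 ± 1.00, SE), Tgtp1 (7.31 ± 0.89, SE) and Tgtp2 (7.24 ± 0.73, SE) were among the 12 largest rises as well. Naive replicate 2 held the highest naive value of all 4, from 2.00 for Iigp1 to 5.23 for Ifi47, and the lowest EAE-vehicle value, 5.72 for Tgtp1, still lay above it. Tgtp1 and Tgtp2 are near-identical neighbours on chromosome 11 and share reads, so their split is uncertain. In EAE-vehicle replicate 4 the T cell receptor gene Cd3g had no signal and the T cell gene Cd2 stood at 1.06. Psmb8 was at 8.08 in this library, Gbp2 at 7.20 and Igtp at 9.52. The GTPase list averaged 5.75 in it, the lowest of the EAE-vehicle libraries, against 6.68 to 7.64 in the others. Oligodendrocyte and microglial markers averaged 6.58 and 3.02 in it. The part of T cells in these rises was not tested.

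**Figure D3:**
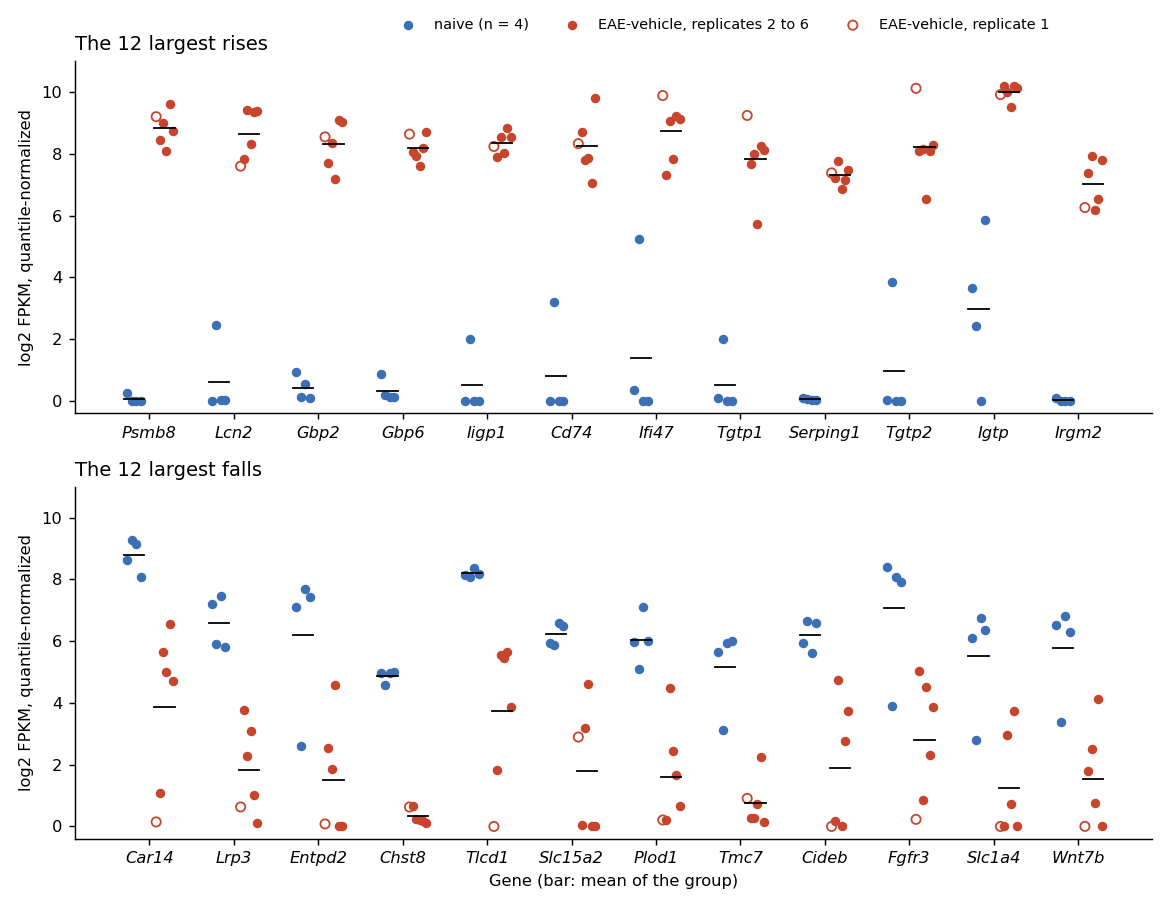
Level (log2 FPKM, quantile-normalized) of the 12 largest rises (top) and the 12 largest falls (bottom) in each library. Blue points are the 4 naive libraries, red points EAE-vehicle replicates 2 to 6, open circles EAE-vehicle replicate 1, and bars the group means. The groups do not overlap for any of the 12 rises and overlap for 4 of the 12 falls (Entpd2, Fgfr3, Slc1a4 and Wnt7b).

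The machinery of antigen presentation on MHC class I rose with the GTPases. All 23 listed genes passed the filter, 7 of them only through EAE-vehicle values, and 16 were called higher (18 without EAE-vehicle replicate 1) and 1, the disulfide isomerase Pdia3, was called lower, with a median difference of 2.60. The lower call was lost on leaving out any 1 of the 4 naive libraries or EAE-vehicle replicate 3. Psmb8, a catalytic subunit of the immunoproteasome, showed the largest rise of all protein-coding genes that met the naming rule. It stood at 0.25, 0.01, 0.00 and 0.00 in naive and at 8.08, 8.86 and 9.60 (lowest, median, highest) in EAE-vehicle libraries, a difference of 8.78 ± 0.47 (SE, adjusted p = 2.03e-13). Psmb9, a further immunoproteasome subunit encoded nearby on chromosome 17, rose by 6.31 ± 0.64 (SE). The class I heavy chains rose from different starting points. H2-D1, a classical chain, went from 5.69, 2.68, 6.86 and 7.09 to 8.56, 10.21 and 10.79, whereas the non-classical H2-T23 went from 0.62, 2.27, 0.93 and 0.00 to 6.88, 7.63 and 8.46. Calr, the chaperone calreticulin, was not called, with 6.96 ± 0.19 (SD, n = 4) in naive and 5.96 ± 1.18 (SD, n = 6) in EAE-vehicle libraries.

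MHC class II genes, which present antigen to CD4+ T cells and are strongest in professional antigen-presenting cells, had 7 of 11 members past the filter, 5 of them only through the EAE-vehicle libraries, and all 7 were called higher. Without the filter 7 of 11 were called higher as well. Cd74, the invariant chain, was at 0.00, 3.19, 0.00 and 0.01 in naive and at 7.05, 8.10 and 9.83 in EAE-vehicle libraries. H2-Ab1 followed at 0.02, 2.88, 1.11 and 0.00 against 6.28, 6.64 and 8.36. H2-Aa rose by 5.10 ± 0.90 (SE). H2-Eb1 rose by 4.41 ± 1.08 (SE), although it had no signal in EAE-vehicle replicate 1, and the difference was 5.41 without that library. Naive replicate 2 held the highest naive value of all 4 genes, and its list mean was 1.97 against at most 0.48 in the other naive libraries. Microglial and monocyte markers averaged 2.20 and 1.83 there, against 1.84 and 0.98 in naive replicate 4, the next highest. These list means include values without signal, which reach 1.69 in naive replicate 2. A higher level of myeloid cells in that library therefore cannot be read from them.

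Genes that respond to type I interferon rose as well. Of 33 listed, 27 passed the filter, 12 of them only through EAE-vehicle values, and 21 were called higher (22 without EAE-vehicle replicate 1) and 0 lower, with a median of 3.60. Without the filter 23 of 33 were called higher and the median was 2.29. Isg15, a ubiquitin-like modifier, had 0.09, 0.16, 0.09 and 0.12 in naive and 5.19, 6.07 and 6.81 in EAE-vehicle libraries. Bst2 (tetherin), which holds budding virus at the cell surface, rose by 6.20 ± 0.65 (SE). Ifi27l2a and the nucleic acid sensor Zbp1 had no signal in any naive library and stood at medians of 6.47 and 5.71 in EAE, with the lowest EAE-vehicle values at 5.72 and 4.92.

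Of 22 tested receptors, JAK, STAT, IRF and SOCS genes, 4 passed the filter only through EAE-vehicle values. Of the 22, 3 were called, Irf1 and Irf8 among them, all 3 higher, and the list median was 0.54. Of all genes tested, 6.89% were called higher and 9.2% lower. Irf1, an early factor of the interferon gamma response, rose by 4.38 ± 0.87 (SE) and Irf8, a factor of myeloid cells, by 3.40 ± 0.90 (SE). Stat3, the factor of the IL-6 family, was not called at 0.87 ± 0.51 (SE), although its 6 EAE-vehicle values, 5.30 to 6.33, all lay above the naive values of 4.69 to 5.19. The interferon gamma receptor chain Ifngr1 was not called (0.72 ± 1.02, SE).

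Among chemokines, 10 of 19 listed genes passed the filter, 7 only through EAE-vehicle values, with 6 called higher and 1, Cxcl14, lower. Cxcl10, which draws CXCR3+ T cells, rose by 6.35 ± 0.74 (SE), from at most 0.38 in naive to 3.32 (lowest), 6.71 (median) and 8.24 (highest). EAE-vehicle replicate 1 gave the lowest of these. Ccl5, a chemokine made by T cells and glia, rose by 4.89 ± 1.05 (SE). Ccl7 and Ccl19 had no signal in any naive library and spread widely in EAE, from 0.00 to 6.81 and from 0.08 to 5.52, and neither passed the adjusted threshold (limma, adjusted p = 0.135 and 0.0648).

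Of 18 listed complement genes 16 were in the table and 11 passed the filter, 5 of them only through EAE-vehicle values, and 9 were called higher (8 without EAE-vehicle replicate 1) and 0 lower, with a median of 3.16. Without the filter 8 of 16 were called higher and the median was 2.34. Serping1, the C1 inhibitor that blocks the start of the classical pathway, went from at most 0.08 in naive to 6.87, 7.31 and 7.77. C3, the central component, had 0.62, 0.01, 0.00 and 0.00 in naive and 3.43, 4.52 and 5.19 in EAE. C4b rose by 5.50 ± 0.68 (SE) and C1qb by 4.37 ± 0.76 (SE). The C1q chains are made mainly by microglia, and the microglial markers averaged 0.72 to 2.20 in naive and 1.95 to 4.01 in EAE-vehicle libraries. C1qa is itself a member of that marker list, so the list mean is not a separate observation.

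Panels of reactive astrocyte genes were taken from the literature. In the pan-reactive panel 9 of 11 tested genes were called higher (8 without EAE-vehicle replicate 1), with a median of 3.91, and 4 of the 11 passed the filter only through EAE-vehicle values. Without the filter 9 of 13 were called higher and the median was 3.14. Gfap, which is high in astrocytes at rest, stood at 10.46, 10.97, 9.83 and 10.13 in naive and at 12.32, 12.78 and 13.51 in EAE, with no overlap and a difference of 2.47 ± 0.24 (SE, adjusted p = 3.49e-08). Lcn2, the siderophore-binding lipocalin, had 0.00, 2.44, 0.01 and 0.03 in naive and 7.60, 8.84 and 9.43 in EAE, a difference of 8.03 ± 0.65 (SE). The protease inhibitor Timp1 rose by 4.55 ± 0.86 (SE), with its lowest EAE-vehicle value, 1.96, in replicate 2.

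The A1 panel, drawn up from astrocytes after lipopolysaccharide, had 9 of 12 genes past the filter, 6 of them only through EAE-vehicle values, and 7 of the 9 were called higher (median 6.72). Without the filter 8 of 12 were called higher and the median was 4.04. It shares Gbp2, Iigp1, Psmb8, H2-T23, H2-D1 and Serping1 with the interferon, MHC and complement lists above, so its values are not a separate observation. The A2 panel, drawn up after ischaemia, had 6 of 12 genes past the filter, 5 of them only through EAE-vehicle values, and 3 of the 6 were called higher. Without the filter 2 of 12 were called higher and the median was 0.33. Its annexin partner S100a10 rose by 2.45 ± 0.48 (SE).

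**Figure D4:**
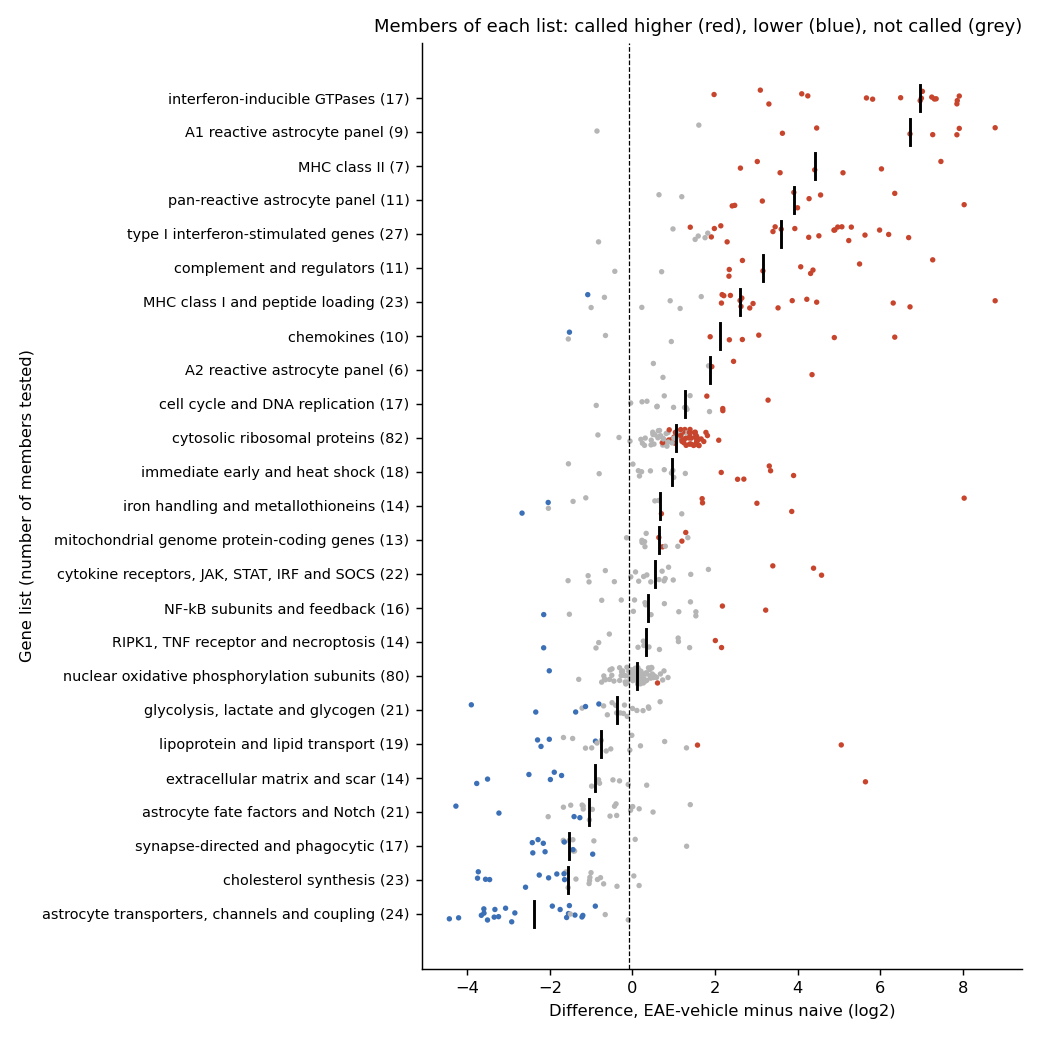
Difference (log2, EAE-vehicle minus naive) of each tested member of 25 gene lists, 1 point per gene, with the list median as a black bar and the median of all 11263 genes, -0.09, as a dashed line. List medians run from 6.96 for the interferon-inducible GTPases to -2.39 for the astrocyte transporters.

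Genes for the transport and coupling functions of resting astrocytes fell. All 24 listed genes passed the filter, and 21 were called lower, 15 at an adjusted p under 0.05, and 0 higher. The median difference was -2.39, and -2.14 without EAE-vehicle replicate 1, where 20 were called lower. Gja1 (connexin 43), the main astrocyte gap junction protein, was at 10.85, 10.57, 10.97 and 10.97 in naive and at 7.38, 7.67 and 8.27 in EAE. Its partner Gjb6 (connexin 30) was at 9.60, 9.56, 10.38 and 9.63 against 5.22, 5.87 and 7.16. Neither gene's groups overlapped, and the differences were -3.07 ± 0.39 and -3.66 ± 0.43 (SE). The peptide transporter Slc15a2 fell by 4.43 on the log2 scale (SE 0.85), the thyroid hormone transporter Slco1c1 by 4.21 (SE 1.09) and the GABA transporter Slc6a11 by 3.60 (SE 0.88).

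Slc1a3, whose product GLAST was the sort marker, had 7.61, 7.25, 7.27 and 7.18 in naive and 4.11, 5.66 and 6.01 in EAE, a difference of -1.94 ± 0.49 (SE, adjusted p = 0.0203). The fall was not shared by every astrocyte gene. Glul (glutamine synthetase) held 8.57 to 8.85 in naive and 8.13 to 9.31 in EAE (-0.10 ± 0.32, SE), and S100b (0.20 ± 0.30, SE), Aldh1l1 (-0.17 ± 0.51, SE) and the fate factor Sox9 (-0.38 ± 0.49, SE) were not called either. Of the 10 astrocyte markers, 6 were called lower and 1, Gfap, higher. The oligodendrocyte and T cell markers given above were higher in the same libraries. EAE-vehicle replicate 4 had the lowest T cell marker level of its group. The transporters averaged 6.65 there, against 7.01 to 8.54 in naive and 4.87 to 6.02 in the other EAE-vehicle libraries. This is 1 library, and the part of other cells in the fall was not tested.

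The 12 largest falls came from several functions. Car14, a membrane carbonic anhydrase, had 8.62, 9.29, 9.14 and 8.09 in naive and 0.15, 4.87 and 6.55 in EAE, a difference of -4.92 ± 0.90 (SE), or -4.18 without EAE-vehicle replicate 1. Tlcd1, a membrane protein that affects phospholipid composition, was even in naive at 8.14, 8.09, 8.38 and 8.17 and wide in EAE at 0.00, 4.65 and 5.64. In fits with other settings or libraries left out, the difference ran from -4.99 to -3.71 for Tlcd1. It ran from -5.90 to -3.95 for Entpd2 and from -5.25 to -3.41 for Cideb, both named below. Chst8, a sulfotransferase, had values of 4.96, 4.59, 4.97 and 5.01 in naive and of 0.12, 0.22 and 0.65 in EAE. Fgfr3, a receptor that marks astrocytes and their progenitors, and the ligand Wnt7b fell by 4.27 and 4.24 on the log2 scale, both with the lowest naive value in naive replicate 2 (3.91 and 3.39). The receptor Lrp3, the ecto-nucleotidase Entpd2, the neutral amino acid transporter Slc1a4, the collagen lysyl hydroxylase Plod1, the TMC family member Tmc7 and the lipid droplet protein Cideb made up the rest with Slc15a2, with differences from -4.78 for Lrp3 to -4.27 for Slc1a4.

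Among 21 tested fate and Notch genes, 4 were called lower (6 without EAE-vehicle replicate 1) and 0 higher, with a median of -1.04. The 4 were Fgfr3, Hes1, Id2 and Nfia. Hes1, a target of Notch, had 0.18, 4.24, 3.48 and 5.76 in naive and signal in only 1 EAE-vehicle library, at 1.09. Id2 fell by 1.27 on the log2 scale (SE 0.31). The call of Nfia (-1.41 ± 0.67, SE), a factor that starts gliogenesis, was lost without naive replicate 1, 2 or 3 or EAE-vehicle replicate 2, 5 or 6, where its difference kept its sign.

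Matrix genes split. Of 14 tested, 6 were called lower and 1 higher. The perineuronal proteoglycan brevican (Bcan) had 8.90, 7.00, 9.36 and 9.25 in naive and 3.89, 4.86 and 6.19 in EAE, and Sparcl1 (hevin), which promotes synapse formation, 12.10, 12.32, 12.10 and 12.70 against 9.22, 9.58 and 10.73. The membrane protease Mmp14 fell by 3.51 on the log2 scale (SE 0.88). The gene that rose was Spp1 (osteopontin), without signal in naive libraries and at 4.01, 6.31 and 7.16 in EAE. Sparc, close in sequence to Sparcl1, was not called (-0.31 ± 0.26, SE). Of 17 tested genes that act on synapses or in phagocytosis, 8 were called lower and 0 higher (median -1.53), among them the phagocytic receptors Mertk (-2.41 ± 0.88, SE) and Axl (-2.29 ± 0.84, SE). Mertk and Axl did not pass the adjusted threshold (adjusted p = 0.139 and 0.144), and without naive replicate 3 the difference of Mertk was no longer called.

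The sterol pathway was lower in part. All 23 cholesterol synthesis genes passed the filter, and 10 were called lower (8 without EAE-vehicle replicate 1) and 0 higher, 4 at an adjusted p under 0.05. The list median was -1.56, and -0.96 without EAE-vehicle replicate 1, a difference of over 1.5 times. Dhcr7, the last enzyme of cholesterol synthesis, had 5.48, 3.39, 6.41 and 6.20 in naive and 0.52, 1.72 and 2.39 in EAE. Mvd and Msmo1 fell by 3.73 and 3.56 on the log2 scale. Hmgcs1, which makes the precursor of mevalonate, was not called (0.03 ± 0.52, SE), nor was Idi1 (-0.85 ± 0.50, SE). In the lipid transport list 4 of 19 tested genes were called lower and 2 higher. Apoe, the main apolipoprotein of astrocytes, had 13.71, 13.01, 14.48 and 14.48 in naive and 11.48, 11.52 and 12.10 in EAE, a fall of 2.30 on the log2 scale (SE 0.28, adjusted p = 2.7e-06). Apod moved the other way, from 5.18, 6.39, 5.34 and 5.67 to 9.10, 10.96 and 12.10. Apolipoprotein D is also made by oligodendrocytes, whose markers rose in the same libraries. The lipoprotein receptor Lrp1 fell by 2.01 on the log2 scale (SE 0.55), and the fatty acid binding protein Fabp5 was not called (0.19 ± 0.49, SE).

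In glucose metabolism 5 of 21 tested genes were called lower and 0 higher, with a median of -0.38. Slc2a1, the glucose transporter GLUT1, had 7.51, 6.30, 8.46 and 8.17 in naive and 0.19, 4.48 and 5.24 in EAE, and Aldoc, the astrocyte aldolase, fell by 1.38 on the log2 scale (SE 0.27). Its more widely expressed relative Aldoa and the lactate dehydrogenase Ldhb were not called (0.26 ± 0.21 and -0.19 ± 0.24, SE). Pfkfb3, which drives glycolytic flux, was lower by 2.34 (SE 0.81, adjusted p = 0.118). The count of 5 was 3 without naive replicate 1, 3 or 4 or EAE-vehicle replicate 1, and 8 without naive replicate 2. Of 14 iron and metallothionein genes 6 were called higher and 2 lower. Transferrin (Trf) rose by 3.85 ± 0.56 (SE), from 4.88 to 6.69 in naive to a median of 10.36, with EAE-vehicle replicate 1 apart at 6.64. Haem oxygenase 1 (Hmox1) was called higher by 3.01 ± 1.10 (SE, adjusted p = 0.143). Transferrin is made by oligodendrocytes as well.

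Of 82 tested ribosomal protein genes, 45 were called higher (53 without EAE-vehicle replicate 1) and 0 lower, with a median of 1.06 and 11 at an adjusted p under 0.05. Rps19 had 6.53, 5.69, 5.75 and 6.39 in naive and 7.27, 8.20 and 8.94 in EAE, Rps2 rose by 1.81 ± 0.49 (SE) and Fau by 1.73 ± 0.50 (SE), while Rps25 was not called (0.69 ± 0.34, SE). Ribosomal protein genes have many processed copies in the genome, so their reads are uncertain. Of 80 tested nuclear oxidative phosphorylation genes 1 was called higher, Cox4i1 (0.61 ± 0.23, SE), and 1 lower, Cox6b2, with a list median of 0.12. The number called higher ranged from 0 without EAE-vehicle replicate 5 to 8 without naive replicate 2. Of the 13 genes of the mitochondrial genome, 4 were called higher, among them mt-Atp6 (1.29 ± 0.39, SE) and mt-Co2 (1.20 ± 0.51, SE), with 1 called without naive replicate 3 or 4 and 2 called without EAE-vehicle replicate 1 or 4. mt-Cytb was at the top of the scale, 15.34, in all 4 naive libraries and in all but 1 of the EAE-vehicle libraries, so a rise could not be seen.

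Of 18 tested immediate early and heat shock genes, 3 of which passed the filter only through EAE-vehicle values, 6 were called higher and 0 lower. Junb had 0.39, 3.33, 0.26 and 0.36 in naive and 2.69, 5.18 and 6.45 in EAE, and Btg2 rose by 3.31 ± 0.96 (SE). Fos was called higher by 2.70 ± 0.94 (SE, adjusted p = 0.117), and the constitutive chaperone Hspa8 was not called (0.14 ± 0.33, SE). Of 17 tested cell cycle genes, 8 of which passed the filter only through EAE-vehicle values, 4 were called higher, Mcm6, Mcm7, Cdc20 and Ccnb2, and 0 passed an adjusted p under 0.05. Mcm6, a subunit of the replicative helicase, was at most 0.87 in naive and had a median of 4.35 in EAE. The count was 1 without naive replicate 1 or 4 and 2 without naive replicate 3 or EAE-vehicle replicate 4 or 6.

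The study asked about RIPK1, the kinase that links TNF receptors to inflammation and cell death. Ripk1 did not pass the level filter, with signal in 3 of 4 naive and 3 of 6 EAE-vehicle libraries and at most 2.21 in any library. Ripk3 had signal in a single library, EAE-vehicle replicate 3, at 3.99. Of 14 tested genes of the TNF receptor and necroptosis list, 3 passed the filter only through EAE-vehicle values. The 2 called higher were Casp8 (2.16 ± 1.01, SE) and Mlkl. The 1 called lower was Tnfrsf1a, the receptor TNFR1 (-2.15 ± 0.97, SE), and 0 of the list passed an adjusted p under 0.05. Of all genes tested, 6.89% were called higher and 9.2% lower, shares that apply to the NF-kB genes below as well. Mlkl, the executioner of necroptosis, had no signal in naive libraries and signal in 4 EAE-vehicle libraries, with 4.52 the highest. Leaving out single libraries removed these calls, with 0 higher without naive replicate 2, 3 or 4 or EAE-vehicle replicate 5 or 6, and 0 lower without any 1 of the naive libraries or EAE-vehicle replicate 1, 2 or 3. Of 16 tested NF-kB genes, 5 passed the filter only through EAE-vehicle values. Of the 16, 2 were called higher, Tnfaip3 and Traf1, and 1 lower. The feedback inhibitor Tnfaip3 (A20) rose by 3.22 ± 0.94 (SE, adjusted p = 0.0468), and the kinase subunit Chuk was called lower (-2.15 ± 0.92, SE), a call lost without naive replicate 2 or EAE-vehicle replicate 1, 3 or 4.

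The same contrast in microglia of these groups was set beside that of astrocytes by an interaction term in 1 limma fit of all 30 libraries. The study took both cell types from the cords of the same mice, the labels do not tie libraries to a mouse, and the fit treats the libraries as independent. The genes tested were those chosen by their level in the astrocyte libraries alone, so genes expressed only in microglia were left out. The counts that follow, and their split by direction, depend on this choice. The change differed between the cell types at an adjusted p under 0.05 in 380 of the 11263 genes (3.37%), with the astrocyte change above the microglial change in 153 and below it in 227. It was 266 genes when same-numbered libraries of the 2 cell types were taken as 1 mouse, an alternative chosen after seeing the data. Psmb8 rose by 8.78 in astrocytes and changed by 1.81 in microglia, a difference of 6.96 (adjusted p = 4.84e-14), and it started at a mean of 7.73 in naive microglia against 0.06 in naive astrocytes. Igtp, Irgm2, H2-T23 and Bst2 differed in the same direction, with differences from 4.82 to 5.68 and naive microglial means of 4.19 to 6.97. By contrast Gbp2 changed by 7.91 in astrocytes and 8.07 in microglia, a difference of -0.16 with a standard error of 0.62 (adjusted p = 0.94). MHC class II leaned the other way, with H2-Aa changing by 5.10 in astrocytes and by 10.03 in microglia (adjusted p of the difference 0.00196).

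Apoe fell in astrocytes and changed by 2.94 in microglia, a difference of -5.24 (adjusted p = 5.27e-08). Axl differed in the same direction, by -5.15. Junb, Btg2 and Fos changed by -3.50, -3.83 and -4.91 in microglia, against 3.90, 3.31 and 2.70 in astrocytes. The astrocyte genes that fell, such as Gja1 and Car14, changed by -0.22 and -0.01 in microglia, where Gja1 had a naive mean of 0.87. A gene that low in microglia had little room to fall there.

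**Figure D5:**
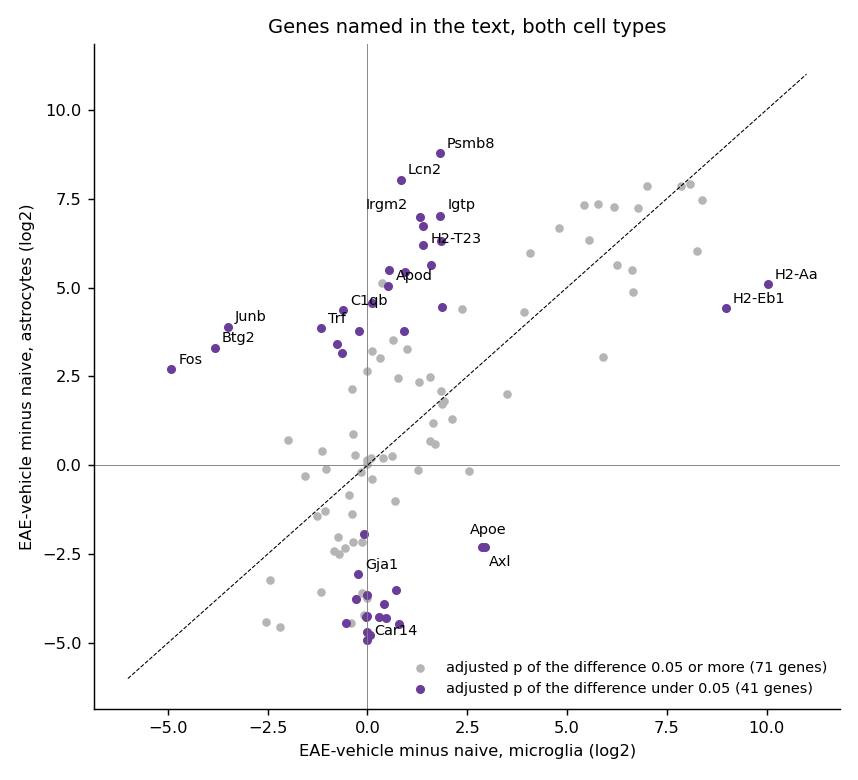
Change between EAE-vehicle and naive (log2) in astrocytes (vertical) against microglia (horizontal) for 112 of the genes named in the text, with 41 genes whose change differed between the cell types at an adjusted p under 0.05 in purple and the other 71 in grey. Psmb8 lies at 8.78 in astrocytes and 1.81 in microglia, and the dashed line marks equal change.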

How the data were processed

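RNA-seq values were used for the 15 astrocyte libraries (4 naive, 6 EAE-vehicle and 5 EAE with a RIPK1 inhibitor, which entered the fit only to estimate the spread), with the 15 microglia libraries added for the comparison of cell types. The deposited table holds log2 FPKM that the authors computed with OmicSoft Array Studio and quantile-normalized, since all 30 libraries hold the same sorted values from 0 to 15.34. The offset added before the logarithm is not given in the sources used here, so differences of low genes depend on it. Counts are not part of the values, and the depth is unknown. Genes without signal fill the lowest stretch of each library, and their values are printed as deposited but set to 0 for the search for libraries that stand apart.

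Genes with a mean log2 of at least 1 over the 10 libraries were fitted in limma 3.58.1 (R 4.3.3) with a trended empirical Bayes variance, unpaired, and p-values were adjusted by Benjamini-Hochberg over the 11263 genes. Calls followed the study's own rule, a change above 1.5 times with p under 0.05 ahead of adjustment. The study's methods name a paired test. Same-numbered naive and EAE-vehicle libraries did not deviate together (r from -0.17 to 0.09), so no pairing was used. Same-numbered astrocyte and microglia libraries did not either (r from -0.05 to 0.13). The comparison and the gene lists were chosen with earlier results of these data known. Genes named were the 12 largest protein-coding rises and falls at an adjusted p under 0.05 that were called also without EAE-vehicle replicate 1, up to 4 called members and 2 members not called per list, markers of cell types, and Ripk1, Ripk3, Mlkl, Gfap and Slc1a3, of which a part is described, while results for some genes are not reported here. Further alternatives changed the filter, offset, weights, centring and libraries. Fits were tested on simulated data. Deposited gene positions matched GRCm38, and promoters came from RefSeq (GRCm38.p6).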

Additional observations from a re-analysis of the deposited data

Results flagged for a closer look

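In 57 of 297 tests of a group of 4 or 6 libraries, 1 library stood apart from the others by Dixon's criterion. The criterion's rate of about 1 group in 20 by chance holds for continuous values and cannot be applied here. With genes without signal set to 0, a single library with any signal is always flagged, so 57 is not a measure of deviant libraries. Values are log2 levels, with genes without signal set to 0, so several naive values far above the rest lie close to 0 themselves. EAE-vehicle replicate 1 was far above the rest of its group for Mmp14 (3.33). EAE-vehicle replicate 1 was far below the rest of its group for Aldh1l1 (4.81), Cxcl10 (3.32), S100a10 (6.76), H2-Eb1 (0.00), Trf (6.64) and Mag (3.09). EAE-vehicle replicate 2 was far above the rest of its group for Chst8 (0.65) and Hes1 (1.09). EAE-vehicle replicate 2 was far below the rest of its group for Timp1 (1.96) and Hmox1 (0.0454). EAE-vehicle replicate 3 was far above the rest of its group for Ripk3 (3.99). EAE-vehicle replicate 4 was far above the rest of its group for Apoe (12.10). EAE-vehicle replicate 4 was far below the rest of its group for H2-D1 (8.56), Ifngr1 (1.44), Cd2 (1.06) and Cd3g (0.00). EAE-vehicle replicate 5 was far above the rest of its group for Tmc7 (2.26). EAE-vehicle replicate 6 was far below the rest of its group for mt-Cytb (14.48) and Mcm6 (0.94). Naive replicate 1 was far above the rest of its group for Psmb8 (0.25), Gbp6 (0.88), Serping1 (0.0788), Irgm2 (0.10), Cxcl10 (0.38), Isg15 (0.0933), C4b (0.0307), C3 (0.62) and Cd3g (0.19). Naive replicate 1 was far below the rest of its group for Glul (8.57). Naive replicate 2 was far above the rest of its group for Lcn2 (2.44), Iigp1 (2.00), Cd74 (3.19), Ifi47 (5.23), Tgtp1 (2.01), Tgtp2 (3.85), H2-Aa (2.67), H2-Eb1 (2.46), Irf8 (2.56), Ccl5 (2.59), Junb (3.33) and Tyrobp (2.85). Naive replicate 2 was far below the rest of its group for Entpd2 (2.61), Chst8 (4.59), Tmc7 (3.11), Fgfr3 (3.91), Slc1a4 (2.81), Wnt7b (3.39), Slc6a11 (4.80), Sox9 (5.39) and Mvd (5.21). Naive replicate 3 was far above the rest of its group for Gjb6 (10.38). Naive replicate 4 was far above the rest of its group for Psmb9 (1.35). Among mean levels of lists, naive replicate 2 was highest for the A1 panel (1.53) and MHC class II (1.97), naive replicate 4 was highest for the endothelial markers (3.52), and EAE-vehicle replicate 1 was lowest for glucose metabolism (5.76).

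For 41 genes named in the report the change between EAE-vehicle and naive differed between astrocytes and microglia, tested as an interaction in limma at an adjusted p under 0.05. Each value is the astrocyte minus the microglial log2 change. It was positive for Fos (7.61), Junb (7.40), Lcn2 (7.20), Btg2 (7.14), Psmb8 (6.96), Irgm2 (5.68), H2-T23 (5.32), Igtp (5.20), Trf (5.01), C1qb (4.98), Cd2 (4.95), Bst2 (4.82), Apod (4.53), Lyz2 (4.49), Psmb9 (4.47), Timp1 (4.44), Irf8 (4.16), Spp1 (4.05), Tyrobp (3.98), C1qa (3.80), Aif1 (2.85) and H2-D1 (2.58). It was negative for Tlcd1 (-5.27), Apoe (-5.24), Axl (-5.15), H2-Aa (-4.93), Car14 (-4.91), Lrp3 (-4.85), Cideb (-4.75), Entpd2 (-4.70), H2-Eb1 (-4.56), Slc1a4 (-4.56), Slc2a1 (-4.32), Wnt7b (-4.24), Fgfr3 (-4.23), Mmp14 (-4.22), Plod1 (-3.89), Gjb6 (-3.66), Bcan (-3.49), Gja1 (-2.85) and Slc1a3 (-1.85). Spp1, Aif1 and Cd2 had no signal in naive astrocytes, so their values depend on the offset. Psmb8 and Irgm2 had no naive signal above 0.25 and 0.10, so their values depend on the offset as well. Many of these genes were named for a large change in astrocytes, and the same values enter this test. The count of 41 is therefore not a separate observation. The astrocyte transporter list averaged 1.09 in naive and 0.94 in EAE-vehicle microglia, and genes that low in microglia had little room to fall there.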

How the results depend on the processing

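Of the called genes named in the report, 94 were followed through the 23 alternatives, and none of these changed direction in an alternative that tested it. Of the 94, 83 kept the call in every alternative that tested them and 11 lost it in at least 1, while 5 of 18 genes that were not called gained one. The 94 were named for large changes in these same data, and the largest rises and falls also had to be called without EAE-vehicle replicate 1. Their stability is therefore partly built in and does not describe all calls. Of all 776 genes called higher, 463 kept the call with a replicate block. Of all 1036 called lower, 739 kept it without naive replicate 3. With the 4959 genes that the annotation does not mark as confounded, 369 were called higher and 485 lower, 123 and 125 of them at an adjusted p under 0.05, since fewer genes were tested. Without the level filter 105 genes were higher and 73 lower at an adjusted p under 0.05, and with weights for library quality 494 and 603. The replicate numbers do not mark a pairing in the labels, and with a replicate block 110 genes were higher and 113 lower at an adjusted p under 0.05. When single libraries were left out, the genes lower at that threshold ranged from 91 to 260. With quality weights 763 genes differed between astrocytes and microglia, against 380, and with same-numbered libraries of both cell types as a replicate block, chosen after seeing the data, 266. The chemokine median was -0.65 among genes with a mean log2 of at least 2, where it was 2.11 with the lower limit, because fewer members were tested. The cause of the other shifts was not tested. Leaving out both naive replicate 2 and EAE-vehicle replicate 1, an alternative chosen after seeing the data, gave 811 genes called higher and 1067 lower. Depth is unknown, and values near 0 cannot separate low from absent expression.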
